A study of Mus musculus with 12 samples.

Results

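The genes examined here set the balance of phosphate and pyrophosphate at mineralising bone: Ank, Enpp1, Alpl, Phospho1, Slc20a1 and Slc20a2. They were taken by gene symbol from a deposited table of read counts, in which they are 6 of 23358 genes. All 6 passed the filter on low counts that left 16190 genes for testing. The table comes from RNA sequencing of newborn mouse skull, with 12 samples in 4 groups of 3. At postnatal day 3 the frontal bone was dissected, along with nasal bone and with both the coronal and the frontonasal suture. On each of the 2 inbred backgrounds, C57BL/6 and BALB/c, wild type mice were set beside mice labelled FGFR2C342Y/+, which carry 1 allele of the fibroblast growth factor receptor Fgfr2 with the Crouzon syndrome change C342Y. The allele is in the germline of the mutants, so it is not limited to bone cells. In Crouzon syndrome the sutures of the skull fuse early, and the study asks how the mutation acts on the 2 backgrounds.

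Bone mineral forms when phosphate and calcium crystallise in a collagen matrix. Pyrophosphate, a pair of linked phosphates, blocks crystal growth, and the alkaline phosphatase made by osteoblasts cleaves it into phosphate. ENPP1 makes extracellular pyrophosphate from ATP, and ANK is needed for release of ATP and pyrophosphate from the cell, so these proteins sit on the side of the inhibitor. ALPL, the tissue-nonspecific alkaline phosphatase, removes pyrophosphate, and PHOSPHO1 frees phosphate inside matrix vesicles, so these enzymes sit on the side of the mineral. SLC20A1 and SLC20A2, also called PiT1 and PiT2, carry phosphate into cells together with sodium.

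The promoters of Ank, Enpp1 and Alpl are shown because these 3 genes are the ones called between the mutants of the 2 strains and also between mutants and wild type of C57BL/6. RefSeq promoters on GRCm38.p6 matched 5 of the 6 genes by symbol, with 7 start sites in all; Slc20a2 was not among them. Each line gives the 250 bases before an annotated start, 5′ to 3′ on the strand of the gene. Capitals mark the letters TGTGGT, the core that RUNX factors bind, or GGGCGG, the GC box, on either strand.
Ank: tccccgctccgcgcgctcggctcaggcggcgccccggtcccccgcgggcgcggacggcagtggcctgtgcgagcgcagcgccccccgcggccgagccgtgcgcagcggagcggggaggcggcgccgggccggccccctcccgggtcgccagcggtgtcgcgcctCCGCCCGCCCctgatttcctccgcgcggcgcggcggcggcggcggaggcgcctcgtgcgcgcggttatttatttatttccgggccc
Enpp1: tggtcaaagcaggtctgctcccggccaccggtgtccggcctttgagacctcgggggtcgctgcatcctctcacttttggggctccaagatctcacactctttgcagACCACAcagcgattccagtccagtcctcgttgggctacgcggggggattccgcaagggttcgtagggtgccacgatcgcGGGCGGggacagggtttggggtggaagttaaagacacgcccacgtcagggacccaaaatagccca
Alpl: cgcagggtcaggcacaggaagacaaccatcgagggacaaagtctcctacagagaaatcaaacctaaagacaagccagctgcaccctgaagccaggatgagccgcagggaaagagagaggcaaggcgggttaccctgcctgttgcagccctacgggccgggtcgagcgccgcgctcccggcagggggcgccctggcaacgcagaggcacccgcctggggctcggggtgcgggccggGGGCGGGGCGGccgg
The Ank promoter is chr15:27466427-27466676 on the plus strand, the Enpp1 promoter is chr10:24712160-24712409 on the minus strand, and the Alpl promoter is chr4:137796385-137796634 on the minus strand, at the upstream of its 2 starts in the table. GC content is 81.2% for Ank, 61.2% for Enpp1 and 68.4% for Alpl, against a median of 52.4% over 32851 mouse promoters. Ank holds 2 overlapping GC boxes whose first bases lie 86 and 82 bases before the start, and Alpl holds 2 overlapping ones at 15 and 10 bases. Enpp1 holds 1 GC box at 65 bases and 1 RUNX core at 144 bases. In windows of the same length over all promoters, 32.7% hold GGGCGG and 14% hold TGTGGT. These letters are a description and not a measured binding site. No match to TGANTCA, TGACGTCA, CCGGAAGT or TATAAA, searched on both strands, was found in the 3 windows shown, and these letters occur in 6.75%, 1.55%, 2.88% and 12.4% of all promoters.

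Total gene counts ran from 27181658 to 46521546 per sample, and those of C57BL/6 mutants (40633058 to 45399520) did not overlap those of C57BL/6 wild type mice (32319568 to 36869392). Levels are given as CPM, the counts per 1000000 counts of the scaled library total. Osteoblast markers were present in every sample, as the tissue label says: 10 of them summed to between 116032 and 265911 CPM. Col1a1 and Col1a2 made up most of this sum, with means of 89219 and 68019 CPM in C57BL/6 wild type, against 257 CPM for Sp7. Several libraries stood apart. Wild type replicate 1 of C57BL/6 had the lowest osteoblast sum, 116032 CPM. A list of 10 olfactory and airway epithelium markers summed to 304 to 679 CPM in C57BL/6 wild type samples, to 160 CPM in mutant replicate 4 of C57BL/6, and to between 8.21 and 12.4 CPM in the other 8 samples. In BALB/c, mutant replicate 16 had 414 CPM of 8 skeletal muscle markers, where every other sample had at most 79.1 CPM, and mutant replicate 17 had 8831 CPM of 10 chondrocyte markers, against 4320 and 4527 CPM in the other mutants. Without either of them, 0 of the 6 genes passed between the BALB/c genotypes by edgeR, as with them (0 and 1 at an unadjusted p under 0.05). Transcripts from 4 genes of the Y chromosome were present in all 3 wild type samples of C57BL/6 but in 1 of 3 samples of each other group, and the labels gave no sex. The labels do not say whether the samples of a group are separate animals or litters, so the p-values measure the spread between these samples only. Run identifiers in the labels differed between the strains and were shared within each, so strain and run cannot be told apart.

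Fgfr2 itself, whose transcript level is not a check of a point mutation, averaged 249 ± 35.8 CPM (SD, n = 3) in C57BL/6 wild type, 361 ± 20.6 in C57BL/6 mutants, 282 ± 11.4 in BALB/c wild type and 299.9 ± 25.0 in BALB/c mutants. Its log2 difference between mutants and wild type was 0.54 in C57BL/6 (SE 0.0999, edgeR quasi-likelihood adjusted p = 0.00405) and 0.09 in BALB/c (SE 0.0997, edgeR adjusted p = 0.800).

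Levels of different genes were compared per kilobase of the deposited coding length, on which their order depends. Over the 12 samples Alpl was highest, at 231 ± 64.3 CPM per kilobase (SD), followed by Ank at 160 ± 44.2. Enpp1 stood at 44.2 ± 12.3 CPM per kilobase, Slc20a2 at 31.1 ± 6.36 and Phospho1 at 26.1 ± 4.47, and Slc20a1 was lowest at 12.4 ± 1.77. The ranges of Alpl and Ank over samples overlapped, and so did those of Enpp1 and Slc20a2, of Slc20a2 and Phospho1, and of Phospho1 and Slc20a1. Enpp1 reached at most 70.7 CPM per kilobase and Ank at least 104, so these ranges did not overlap. Within each library, however, Alpl was above Ank, with a ratio of Ank to Alpl between 0.400 and 0.923. By CPM, Alpl ranked 127 and Ank 137 among the 16190 genes tested, whereas Phospho1 ranked 3429.

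In C57BL/6 mice, transcripts of Ank, Enpp1, Alpl and Slc20a2 were higher in mutants than in wild type mice, and in BALB/c mice none of the 6 genes passed the test. Of the 6 genes, 4 rose in C57BL/6 mutants and 0 fell, where 23.9% of all genes tested passed, 11.3% higher and 12.6% lower. The median log2 difference of the 6 genes was 0.53, against 0.00 for all genes tested, which is where the scaling places it. In BALB/c, 0 of 6 passed by edgeR, DESeq2 or limma-voom, and 1 of 6 was under 0.05 before adjustment in each. There 0.136% of all genes passed, 0.0926% higher and 0.0432% lower, so a count of 0 says little about these genes. Differences are log2 fold changes from 1 edgeR quasi-likelihood fit of all 12 samples, adjusted by Benjamini-Hochberg over 16190 genes and called under 0.05. In these bulk samples a change in the share of osteoblasts and a change of RNA per cell cannot be told apart.

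**Figure D1:**
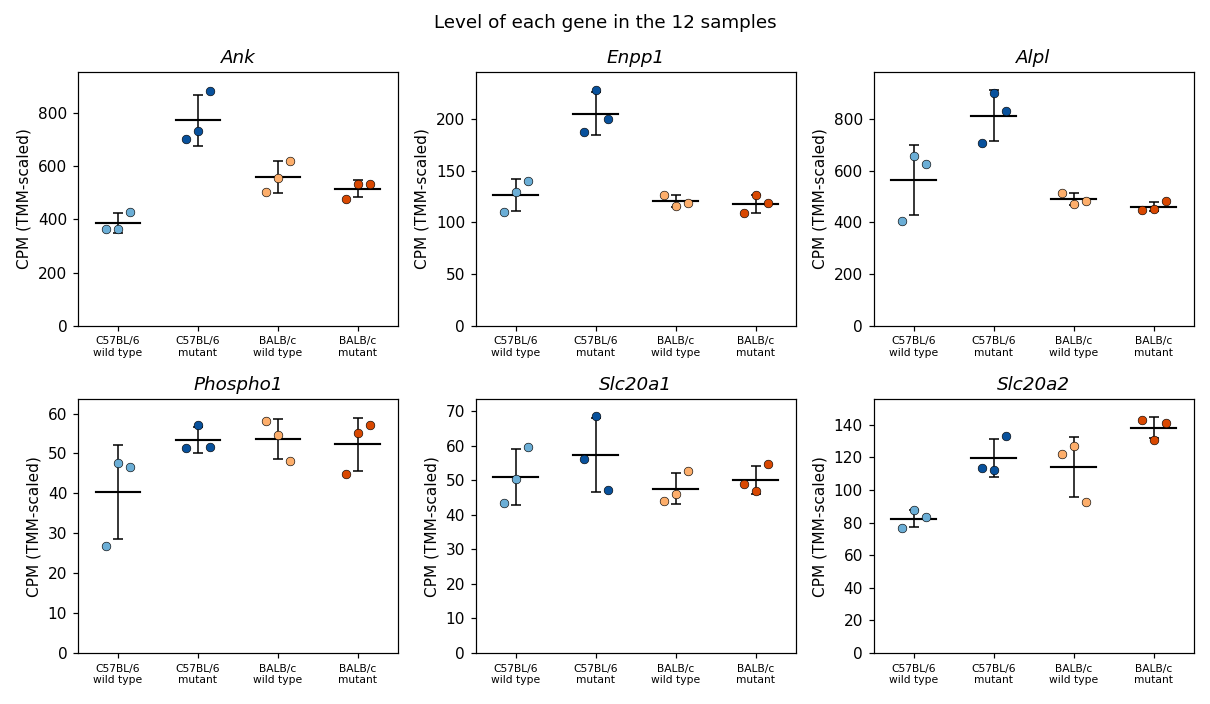
Level of each gene in each sample, in CPM scaled by TMM, by strain and genotype; bars are means and whiskers 1 SD (n = 3). C57BL/6 mutants lie above all C57BL/6 wild type samples for every gene but Slc20a1, and 41.6% of all genes tested do not overlap there. The BALB/c groups overlap for all genes but Slc20a2.

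Of the genes on the side of pyrophosphate, Ank (chr15:27466677-27594907, mm10) differed most. Its level was 364, 364 and 429 CPM in C57BL/6 wild type replicates 1 to 3 and 703, 732 and 883 CPM in C57BL/6 mutant replicates 4 to 6. In BALB/c it was 504, 555 and 621 CPM in wild type replicates 13 to 15 and 478, 535 and 533 CPM in mutant replicates 16 to 18. The C57BL/6 groups did not overlap, the BALB/c groups did, and both BALB/c groups lay between the C57BL/6 ones. Mutants exceeded wild type by a log2 of 1.00 in C57BL/6, or 2.00-fold (SE 0.109, 95% interval 0.76 to 1.24, edgeR adjusted p = 0.000250). Its p-value ranked 62 of 16190, and 49 genes that rose had a larger log2 difference. In BALB/c the difference was -0.12 (95% interval -0.35 to 0.12, edgeR adjusted p = 0.740). The interaction, which is the BALB/c difference minus the C57BL/6 difference, was -1.12 (SE 0.153, 95% interval -1.45 to -0.79, edgeR adjusted p = 0.00213). The C57BL/6 call was lost in 2 of 12 other settings, with the ciliated epithelium (0.74, edgeR adjusted p = 0.209) or erythroid markers (1.10, edgeR adjusted p = 0.388) as a covariate, and the difference was 0.42 on the osteoblast scale (edgeR adjusted p = 0.0486). The interaction was lost with these covariates (-0.84 and -1.27, edgeR adjusted p = 0.244 and 0.665) and on the osteoblast scale (-0.48, edgeR adjusted p = 0.129).

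Enpp1 (chr10:24641411-24712102, mm10) was also highest in C57BL/6 mutants. It measured 109.5, 129 and 140.4 CPM in C57BL/6 wild type samples and 188, 228 and 199.6 CPM in C57BL/6 mutants. In BALB/c, wild type samples had 127, 115 and 119 CPM and mutants had 109, 127 and 119 CPM. All 3 C57BL/6 mutants were thus above the 9 other samples. The log2 difference was 0.70 in C57BL/6, or 1.62-fold (SE 0.0980, 95% interval 0.48 to 0.91, edgeR adjusted p = 0.000945), and -0.03 in BALB/c (95% interval -0.24 to 0.19, edgeR adjusted p = 0.964). The interaction was -0.73 (SE 0.138, edgeR adjusted p = 0.0108). The C57BL/6 call was lost with the ciliated epithelium (0.40, edgeR adjusted p = 0.506) or erythroid covariate (0.94, edgeR adjusted p = 0.388) and on the osteoblast scale (0.14, edgeR adjusted p = 0.419). The interaction was lost in the same settings, at -0.40, -1.09 and -0.10 (edgeR adjusted p = 0.674, 0.663 and 0.699). Interactions were called for 2 of the 6 genes, Ank and Enpp1, both lower, and for 10% of all genes tested, 5.46% higher and 4.58% lower.

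Alpl (chr4:137741732-137796377, mm10) encodes the first of the enzymes that release phosphate. Its level was 406, 655 and 627 CPM in C57BL/6 wild type and 706, 898 and 832 CPM in C57BL/6 mutants. In BALB/c it was 514, 470.0 and 484 CPM in wild type and 448, 453 and 482 CPM in mutants. The C57BL/6 groups did not overlap, but the lowest value of all 12 samples was wild type replicate 1 of C57BL/6, the library with the lowest osteoblast sum. The log2 difference in C57BL/6 was 0.53 (SE 0.149, 95% interval 0.20 to 0.86, edgeR adjusted p = 0.0252). This call was lost without mutant replicate 5 (0.45, edgeR adjusted p = 0.0876) or mutant replicate 6 (0.51, edgeR adjusted p = 0.0780), in a fit of the C57BL/6 samples alone (0.52, edgeR adjusted p = 0.122) and with Y-linked transcripts as a covariate (0.52, edgeR adjusted p = 0.0606). With the ciliated epithelium markers as a covariate the difference was -0.01 (edgeR adjusted p = 0.997), with the erythroid markers 0.64 (edgeR adjusted p = 0.662), and relative to the osteoblast markers 0.00 (edgeR adjusted p = 0.984). In BALB/c the difference was -0.09 (95% interval -0.41 to 0.24, edgeR adjusted p = 0.888), and the interaction, -0.62 (SE 0.211, edgeR adjusted p = 0.0803), did not pass; it passed without mutant replicate 4 of C57BL/6 (-0.70, edgeR adjusted p = 0.0334) and with DESeq2 (-0.62, adjusted p = 0.0168).

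Phospho1 (chr11:95824500-95832140, mm10) measured 26.8, 47.5 and 46.6 CPM in C57BL/6 wild type and 51.3, 57 and 51.5 CPM in C57BL/6 mutants. BALB/c wild type samples had 58.1, 54.6 and 48.1 CPM, and BALB/c mutants had 44.8, 55.1 and 57.2 CPM. The C57BL/6 groups did not overlap, which was so for 41.6% of all genes tested, yet the log2 difference of 0.40 (SE 0.177, 95% interval 0.02 to 0.79, edgeR adjusted p = 0.112) did not pass the test. Fits that left out 1 C57BL/6 sample gave 0.20 to 0.54, and none passed by edgeR. The counts of Phospho1 are uncertain. Of 2029 exonic bases of Phospho1, 1708 (84.2%, chr11:95830433-95832140) also lie in exons of Abi3 on the opposite strand, and the strand setting of the counting is not given in the sources used here, so reads of the 2 genes cannot be told apart. Abi3 had 18.7, 31.6 and 29.6 CPM in C57BL/6 wild type and 32.5, 35.1 and 36.4 CPM in C57BL/6 mutants, with a log2 difference of 0.38 (edgeR adjusted p = 0.102).

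Of the phosphate carriers, Slc20a2 rose in C57BL/6 mutants and Slc20a1 did not pass the test. Slc20a2 (chr8:22476700-22569616, mm10) had 76.8, 87.5 and 83.4 CPM in C57BL/6 wild type and 114, 112 and 133 CPM in C57BL/6 mutants. In BALB/c it had 122, 127 and 92.9 CPM in wild type and 143, 131 and 141 CPM in mutants. Mutants did not overlap wild type samples on either background. The span of the gene overlaps that of another row of the table, AI316807, and the overlap of their exons was not measured. The log2 difference was 0.54 in C57BL/6 (SE 0.110, 95% interval 0.30 to 0.77, edgeR adjusted p = 0.00625) and 0.28 in BALB/c (SE 0.109, 95% interval 0.04 to 0.52, edgeR adjusted p = 0.345). The C57BL/6 call was lost in 3 of 12 other settings, with the ciliated epithelium (0.42, edgeR adjusted p = 0.677) or erythroid markers (0.85, edgeR adjusted p = 0.424) as a covariate and on the osteoblast scale, where it turned to -0.04 (edgeR adjusted p = 0.826). The interaction of -0.26 (95% interval -0.59 to 0.08, edgeR adjusted p = 0.287) did not pass, so the 2 strains were not shown to differ. Slc20a2 was the 1 gene of 6 whose BALB/c groups did not overlap, which was so for 20% of all genes, and the 1 gene that was under 0.05 there before adjustment.

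Slc20a1 (chr2:129198773-129211612, mm10) had 43.4, 50.2 and 59.6 CPM in C57BL/6 wild type and 56.2, 68.7 and 47.3 CPM in C57BL/6 mutants. BALB/c wild type samples had 43.9, 46.1 and 52.5 CPM and BALB/c mutants 48.9, 46.8 and 54.7 CPM. The groups overlapped on both backgrounds. The log2 difference was 0.17 in C57BL/6 (95% interval -0.13 to 0.47, edgeR adjusted p = 0.396) and 0.08 in BALB/c (95% interval -0.23 to 0.38, edgeR adjusted p = 0.895), and the C57BL/6 difference was -0.02 when libraries were scaled by total counts. Slc20a1 shares 9.46% of its 50-base words with other genes, more than Ank, Enpp1, Alpl and Slc20a2 do (0 to 0.732%).

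The authors' deposited table, made with their own comparison, lists q-values under 0.05 in C57BL/6 for Ank (log2 0.86, q = 0.000105), Enpp1 (log2 0.67, q = 2.72e-05), Alpl (log2 0.50, q = 0.00176) and Slc20a2 (log2 0.51, q = 0.00279). The authors' deposited table gives Phospho1 a q of 0.131 and Slc20a1 a q of 0.413 there. For BALB/c the lowest q of the 6 genes in the authors' deposited table was 0.454, for Slc20a2.

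Other genes of the tissue moved with genotype in C57BL/6 and their part in these differences was not tested. Of 10 osteoblast markers, 8 rose in C57BL/6 mutants (median log2 0.55) and 0 fell, and of 7 osteoclast markers all 7 rose (median 0.96). Of all genes tested, 11.3% rose and 12.6% fell there. Summed osteoclast markers were 3471 to 4240 CPM in C57BL/6 wild type, 7311 to 8152 CPM in C57BL/6 mutants, 4194 to 4983 CPM in BALB/c wild type and 4355 to 4984 CPM in BALB/c mutants, so that C57BL/6 mutants were above all other samples. Erythroid markers fell for 7 of 9 genes in C57BL/6 mutants, neutrophil markers for 4 of 8, chondrocyte markers for 5 of 10, ciliated epithelium markers for 5 of 9 and olfactory and airway markers for 6 of 10. Of 8 skeletal muscle markers 1 fell, of 6 endothelial markers 1 rose, and of 4 Y-linked genes 0 passed by edgeR (0 also before adjustment) or DESeq2, while all 4 were lower by limma-voom.
Summed erythroid markers ran from 455 to 609 CPM in C57BL/6 wild type and from 170 to 211 CPM in C57BL/6 mutants, but from 803 to 1212 CPM in BALB/c wild type and from 1400 to 1708 CPM in BALB/c mutants. In BALB/c, 8 of the 10 olfactory and airway markers were under 1 CPM in every sample. Mutant replicate 4 of C57BL/6 held 160 CPM of olfactory and airway markers, less than any C57BL/6 wild type sample. It had 703 CPM of Ank, 188 CPM of Enpp1 and 706 CPM of Alpl, the lowest of the 3 C57BL/6 mutants for each. Its 114 CPM of Slc20a2 was not the lowest. These values were above every C57BL/6 wild type sample, and a part of the nasal lining in them was not tested. With the mean of the ciliated list as a covariate, the C57BL/6 differences of Ank, Enpp1, Alpl and Slc20a2 were 0.74, 0.40, -0.01 and 0.42, and with the erythroid list 1.10, 0.94, 0.64 and 0.85; none of these passed by edgeR. Genotype set 73.9% of the variance of the ciliated covariate and 92.8% of the erythroid one in C57BL/6, and 29.4% and 91.2% in BALB/c. Genotype and covariate were thus partly confounded, more so for the erythroid list, and the part of each was not tested.

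**Figure D2:**
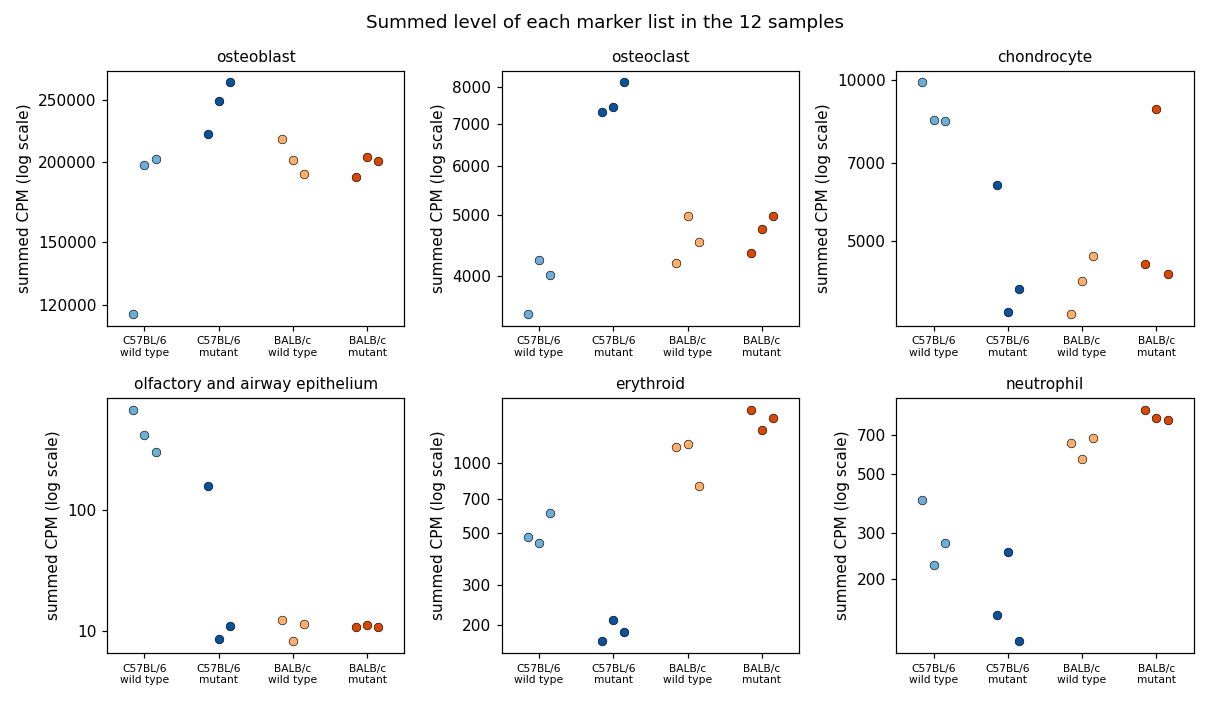
Summed CPM of 6 marker lists in each sample, on log axes, by strain and genotype. Osteoclast sums are highest in the 3 C57BL/6 mutants (7311 to 8152 CPM). The osteoblast sum, mostly Col1a1 and Col1a2, is lowest in wild type replicate 1 of C57BL/6 (116032 CPM).

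Because osteoblast markers rose in C57BL/6 mutants, the fit was repeated with libraries scaled so that the osteoblast list as a whole did not change. This moved the median of all genes by -0.60 on the log2 scale in C57BL/6 and by 0.07 in BALB/c, and moved the balance of calls in C57BL/6 from 1835 genes higher and 2032 lower to 31 higher and 8745 lower. Relative to the osteoblast list, the C57BL/6 difference was 0.42 for Ank (95% interval 0.06 to 0.78, edgeR adjusted p = 0.0486), 0.14 for Enpp1 (-0.18 to 0.46, edgeR adjusted p = 0.419) and 0.00 for Alpl (-0.24 to 0.25, edgeR adjusted p = 0.984). It was -0.04 for Slc20a2 (edgeR adjusted p = 0.826), -0.10 for Phospho1 (edgeR adjusted p = 0.534) and -0.38 for Slc20a1 (edgeR adjusted p = 0.0877). With 8745 genes called lower on this scale, the adjustment let larger unadjusted p-values pass than under TMM scaling. Only Ank of the 6 genes passed on this scale. Its call was kept without wild type replicate 1 (0.66, edgeR adjusted p = 0.00323) and lost without each of the other 5 C57BL/6 samples, where the difference ran from 0.27 to 0.47 with edgeR adjusted p from 0.0727 to 0.162. The interaction on this scale was -0.48 for Ank (edgeR adjusted p = 0.129) and -0.10 for Enpp1 (edgeR adjusted p = 0.699). The difference between Ank and Alpl on this scale was not tested.

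**Figure D3:**
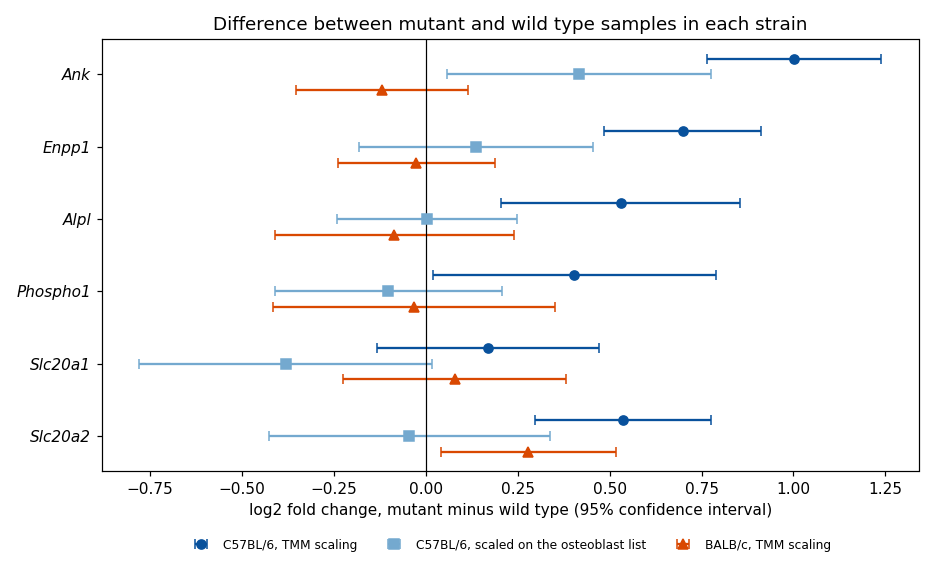
Log2 difference between mutant and wild type samples with 95% intervals: C57BL/6 under TMM scaling (circles), C57BL/6 relative to the osteoblast list (squares) and BALB/c under TMM scaling (triangles). For Ank the 3 values are 1.00, 0.42 and -0.12; for Alpl they are 0.53, 0.00 and -0.09.

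Ratios of counts per kilobase within a library do not depend on scaling, and are given as a description with no test. Ank to Alpl was 0.645, 0.400 and 0.493 in C57BL/6 wild type and 0.717, 0.586 and 0.764 in C57BL/6 mutants, and these ranges overlapped. It was 0.705, 0.850 and 0.923 in BALB/c wild type and 0.768, 0.851 and 0.795 in BALB/c mutants. For Ank to Alpl the wild type groups of the 2 strains did not overlap, and BALB/c was higher. Enpp1 to Alpl lay within 0.154 to 0.218 in all 12 samples, while Enpp1 itself ranged from 109 to 228 CPM. It spread from 0.154 to 0.210 within C57BL/6 wild type alone, and that range held the BALB/c wild type values, 0.192 to 0.193. Ank to Slc20a1 was 8.58 to 10 in C57BL/6 wild type and 12.7 to 22.2 in C57BL/6 mutants, and 13.7 to 14.3 and 11.6 to 13.6 in the BALB/c groups. Slc20a1 to Slc20a2 averaged 0.543 ± 0.0737 (SD, n = 3) in C57BL/6 wild type, 0.428 ± 0.113 in C57BL/6 mutants, 0.377 ± 0.104 in BALB/c wild type and 0.319 ± 0.0198 in BALB/c mutants.
Phospho1 to Alpl separated the strains and not the genotypes. It lay between 0.0815 and 0.0981 in the 6 C57BL/6 samples and between 0.131 and 0.160 in the 6 BALB/c samples, subject to the overlap of Phospho1 with Abi3.

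**Figure D4:**
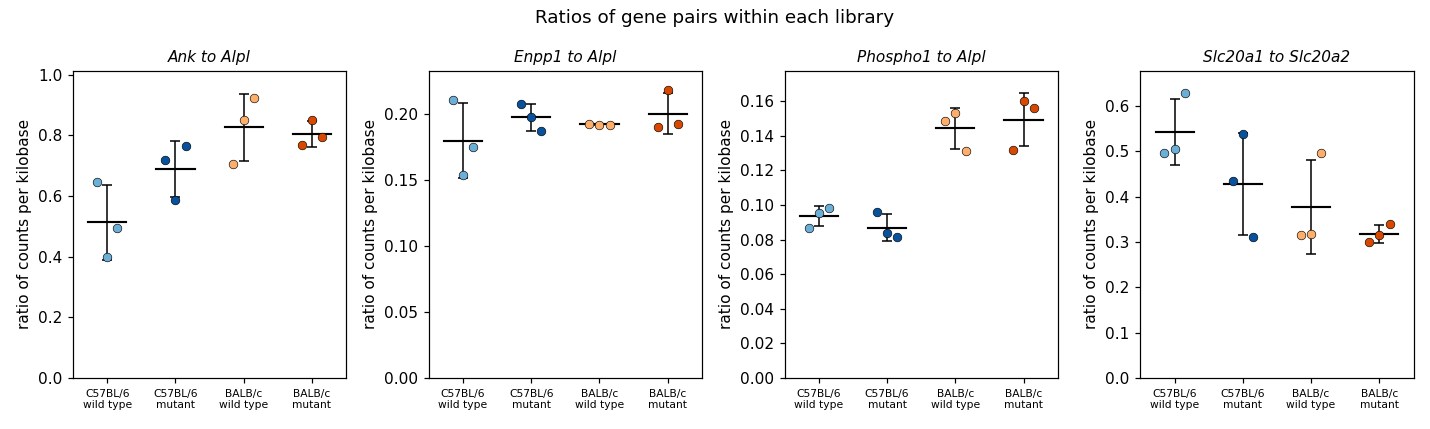
Ratio of counts per kilobase of 4 gene pairs within each library; bars are means and whiskers 1 SD (n = 3). Phospho1 to Alpl is at most 0.0981 in C57BL/6 and at least 0.131 in BALB/c, and Enpp1 to Alpl stays between 0.154 and 0.218.

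Between strains, BALB/c minus C57BL/6, the genes did not move together. In wild type mice Ank was higher in BALB/c by a log2 of 0.54 (SE 0.108, edgeR adjusted p = 0.00190) and Slc20a2 by 0.47 (SE 0.110, edgeR adjusted p = 0.00450), so 2 of 6 were higher and 0 lower, where 48.5% of all genes passed, 22.8% higher and 25.6% lower. The wild type groups did not overlap for 57.5% of all genes. Phospho1 differed by 0.41 (edgeR adjusted p = 0.0743), Alpl by -0.20 (edgeR adjusted p = 0.287), Slc20a1 by -0.10 (edgeR adjusted p = 0.565) and Enpp1 by -0.07 (edgeR adjusted p = 0.583). Without wild type replicate 1 of C57BL/6, Alpl was lower in BALB/c by -0.38 (edgeR adjusted p = 0.00764).
In mutants, 3 of 6 were lower in BALB/c and 0 higher, where 36.9% of all genes passed, 18% higher and 18.9% lower, and 50.2% did not overlap. Alpl differed by -0.82 (SE 0.150, edgeR adjusted p = 0.00130), Enpp1 by -0.79 (SE 0.0981, edgeR adjusted p = 8.79e-05) and Ank by -0.58 (SE 0.108, edgeR adjusted p = 0.00138). Ank thus changed sides: BALB/c was above C57BL/6 among wild type mice and below it among mutants. The authors' deposited table puts Ank of mutants at a log2 of 0.44 for C57BL/6 over BALB/c, with a q just above 0.05 (q = 0.0520). Slc20a2 differed by 0.21 (edgeR adjusted p = 0.151), Slc20a1 by -0.19 (edgeR adjusted p = 0.293) and Phospho1 by -0.03 (edgeR adjusted p = 0.925). Relative to the osteoblast list Alpl was lower in BALB/c in both genotypes, by -0.49 in wild type (edgeR adjusted p = 0.00550) and -0.51 in mutants (edgeR adjusted p = 0.00748). Enpp1 was lower on this scale in BALB/c mutants, by -0.50 (edgeR adjusted p = 0.0363), and did not pass in wild type (-0.40, edgeR adjusted p = 0.0572). Ank passed in neither genotype. The strain and genotype comparisons share samples, so they are not independent of each other.

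Other genes of the pathway were counted from lists. Of all genes tested, 11.3% rose and 12.6% fell in C57BL/6 mutants. Of 8 phosphate handling genes tested, 6 rose and 0 fell in C57BL/6 mutants, with a median log2 of 0.51. On the osteoblast scale 0 of the 8 rose, 1 fell and the median was -0.05. Phex, an endopeptidase of osteocytes that acts in phosphate control, went from 275 ± 55.9 to 424 ± 29.4 CPM (SD, n = 3; log2 0.62, edgeR adjusted p = 0.0102). Dmp1, a matrix protein of osteocytes, rose from 1079.5 ± 195 to 1662 ± 112 CPM (log2 0.62, edgeR adjusted p = 0.00697), and Mepe, another of them, from 53.9 ± 5.06 to 79.1 ± 4.08 CPM (log2 0.55, edgeR adjusted p = 0.00449). Xpr1, the phosphate exporter, rose from 91.2 ± 6.82 to 139 ± 8.88 CPM (log2 0.61, edgeR adjusted p = 0.00216). Fam20c, the kinase of secreted matrix proteins, and Galnt3, which glycosylates FGF23, also rose, by 0.46 and 0.37, though the call of Galnt3 held in 2 of 6 fits that left out 1 C57BL/6 sample. Fgf23, the phosphate-lowering hormone, was at 4.59 ± 2.29 CPM in C57BL/6 wild type and 2.12 ± 0.496 CPM in mutants (log2 -1.12, edgeR adjusted p = 0.0778). The kidney and gut carriers Slc34a1, Slc34a2 and Slc34a3 were too low to test, and with Kl they were under 1 CPM in every sample.
Between wild type strains, Mepe was higher in BALB/c by 1.01 on the log2 scale (108.8 ± 18.3 CPM), and Xpr1 differed by -0.43.

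Of 10 other genes of pyrophosphate and extracellular nucleotides, 1 rose, 1 fell and 8 did not pass in C57BL/6, with a median log2 of -0.06. Of all genes tested, 11.3% rose and 12.6% fell there. On the osteoblast scale 6 of the 10 fell. Enpp3, a relative of Enpp1, rose from 7.80 ± 0.167 to 11.2 ± 1.13 CPM (log2 0.52, edgeR adjusted p = 0.0226). Ppa1, a cytosolic pyrophosphatase, fell by 0.31 on the log2 scale (edgeR adjusted p = 0.0292). Each of these calls held in 3 of 6 fits that left out 1 C57BL/6 sample. Abcc6, a transporter that releases ATP in liver and was chosen for mention after its values were seen, was low in all groups but was the gene of this list that differed most between strains, at 0.629 ± 0.102 CPM in C57BL/6 and 2.21 ± 0.514 CPM in BALB/c wild type (log2 1.82). Of 8 matrix vesicle genes 3 rose and 0 fell, with small differences: Smpd3, a sphingomyelinase needed for bone mineral (0.36), Slc44a1, a choline transporter (0.31), and Chka, the choline kinase that makes phosphocholine, the substrate of PHOSPHO1 (0.24). Smpd3 was at the threshold (edgeR adjusted p = 0.0500). These calls held in 1, 2 and 3 of 6 fits that left out 1 sample, and on the osteoblast scale 0 of the 8 genes rose and 5 fell.
Of 5 mineral binding proteins tested, 3 rose and 1 fell, and on the osteoblast scale 1 rose, Spp1, and 1 fell, Mgp. Ibsp and Bglap are also on the osteoblast list, so that scale partly sets their result. Spp1, which encodes osteopontin, a secreted protein that binds mineral and slows its growth, had 6120 ± 1201 CPM in C57BL/6 wild type and 11745 ± 338 CPM in mutants (log2 0.94, edgeR adjusted p = 0.000662). Bglap2 rose by 0.76 and Bglap by 0.58; these osteocalcin genes are near-identical copies, so their separate counts are uncertain. Mgp, the matrix Gla protein of cartilage and vessels, fell by 1.12 on the log2 scale, from 311 ± 37.7 to 143 ± 57.3 CPM.

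In BALB/c, 0 of the 31 genes tested in these 4 lists passed by edgeR, DESeq2 or limma-voom, and 2 were under 0.05 before adjustment in each. There 0.136% of all genes passed by edgeR, so a count of 0 says little about these genes. The interaction was called for 7 of the 31 genes, and for 10% of all genes tested, 5.46% higher and 4.58% lower. For each of the 7 the difference between mutants and wild type was lower in BALB/c than in C57BL/6. The interactions were Spp1 (-1.16), Phex (-0.78), Dmp1 (-0.66), Mepe (-0.65), Bglap (-0.63), Fam20c (-0.49) and Chka (-0.37). Of these, Spp1 was called in each of 12 fits that left out 1 sample, Mepe in 9 and the others in 3 to 5. With libraries scaled by total counts 2 of the 31 were called, and on the osteoblast scale 0 were lower and 1 was higher. Ibsp and Bglap of the 31 are also on the osteoblast list, so that scale partly sets their result.

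**Figure D5:**
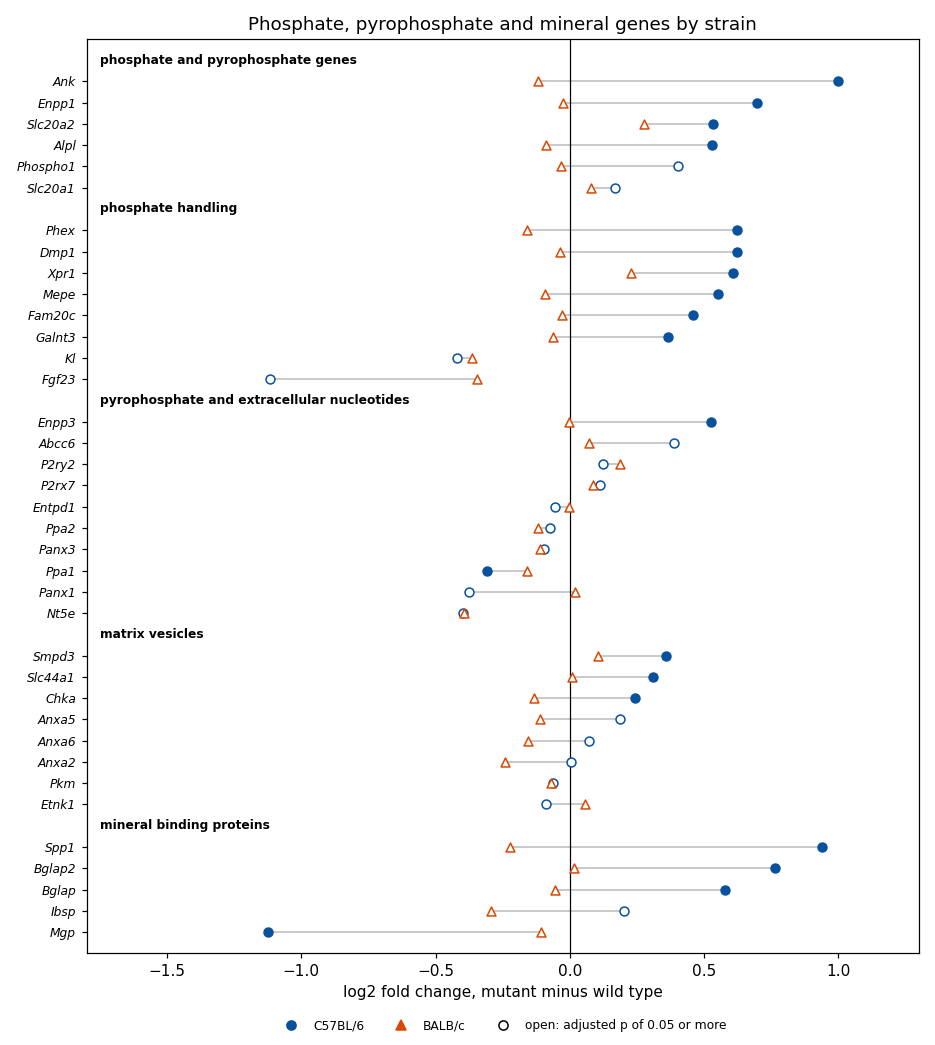
Log2 difference between mutant and wild type samples for the 6 genes and 4 related lists, in C57BL/6 (circles) and BALB/c (triangles); filled symbols have an adjusted p under 0.05. Filled circles stand mainly to the right for phosphate handling genes (6 of 8), and no triangle is filled.

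Across the 12 samples, the genes whose log2 CPM followed each of the 6 most closely were found among 10506 genes with a mean of at least 5 CPM. These correlations are descriptions over samples that share strain, run and genotype, and carry no test. Ank was followed by Igfbp5 (Pearson r 0.972), which encodes a growth factor binding protein, Jdp2 (0.964) and Lifr (0.963), the receptor of leukaemia inhibitory factor. Lifr went from 191 ± 15.8 to 387 ± 41.7 CPM in C57BL/6 and stood at 252 ± 13.1 and 252 ± 18.2 CPM in the BALB/c groups, which lay between the C57BL/6 ones as they did for Ank. Enpp1 was followed by Pdgfrb (0.978), the platelet-derived growth factor receptor beta, and by Pdgfc (0.968). Alpl was followed by St3gal1 (0.982), Elk3 (0.978) and Cd109 (0.976). Slc20a2 was followed by Lbh (0.964), Tnfrsf1a (0.944) and Wars2 (0.944), and Slc20a1, the gene that varied least, by Adamts1 (0.911), Eif4g1 (0.894) and Spry4 (0.889). Phospho1 was followed by Gga2 (0.957), by Abi3 (0.949), with which it shares exonic bases, and by Tnfrsf23 (0.939).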

How the data were processed

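Frontal bone RNA of 12 mouse samples in 4 groups of 3, by strain and genotype, was sequenced; per the labels' protocols, tissue was digested with collagenase and trypsin and lysed in Trizol, and mRNA libraries were made. The submitters' processing notes name bcl2fastq, TopHat2 2.0.6, HTSeq, DESeq2 and mm10, without roles; strand setting and annotation are not given in the sources used here. The authors deposited raw gene counts, all even numbers (0 odd), with a coding length per gene, and RPKM values that the authors made from them, which were not used. The authors also deposited a table of log2 fold changes with p-values and q-values for 4 comparisons.

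Counts were analysed as deposited in R 4.3.3 with edgeR 4.0.16: filterByExpr (minimum count 10, minimum total 15), TMM scaling and 1 quasi-likelihood model with a mean per group over all 12 samples. All 5 contrasts were tested with Benjamini-Hochberg adjustment over 16190 genes, a difference being called under 0.05. CPM are TMM-scaled, and log2 CPM use a prior count of 2. DESeq2 1.42.0, limma 3.58.1 (voom), other scalings and filters, covariates and left-out samples were alternatives. The fit was tested on simulated data. With 3 against 3, an exact permutation test of 1 gene cannot go below p = 0.1.

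Samples were grouped by their labels. Genes were named as follows: all 6 with every sample's value, up to 4 called genes per list by size, and the 3 closest by correlation, of which 1 is not reported here. Fam20c, Galnt3, Fgf23 and Abcc6 were named beyond this rule, after their values were seen. The 6 genes and the lists were chosen with earlier results of these data known. Value columns of no sample of the series numbered 0, and 26 identifiers stood on more than 1 row.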

Additional observations from a re-analysis of the deposited data

Results flagged for a closer look

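The genotype difference of Ank was not the same in the 2 strains by a test of the difference itself: the interaction was -1.12 on the log2 scale (edgeR quasi-likelihood adjusted p = 0.00213), with mutants above wild type in 3 of 3 C57BL/6 samples and overlapping groups in BALB/c. It was called in 8 of 11 other settings and in 12 of 12 fits that left out 1 sample.

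Enpp1 also differed between the strains, with an interaction of -0.73 (edgeR adjusted p = 0.0108), called in 8 of 11 other settings and in 12 of 12 fits that left out 1 sample. For both genes the call was lost when libraries were scaled on the osteoblast list or when the ciliated epithelium or erythroid list was a covariate. On the osteoblast scale the interaction was -0.48 for Ank and -0.10 for Enpp1 (edgeR adjusted p = 0.129 and 0.699). With the ciliated covariate it was -0.84 and -0.40 (edgeR adjusted p = 0.244 and 0.674), and with the erythroid one -1.27 and -1.09 (edgeR adjusted p = 0.665 and 0.663).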

How the results depend on the processing

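No paired analysis was possible because the groups share no replicate numbers. Over 570 differences of the 6 genes under other settings, 501 kept their direction and side of the threshold, 29 lost and 10 gained a call, and 28 that were not called before or after the change of setting changed sign. Of called differences 2 changed sign: Slc20a2 in C57BL/6 became -0.0449 on the osteoblast scale (edgeR adjusted p = 0.826), and Alpl in C57BL/6 became -0.00764 with the ciliated covariate (edgeR adjusted p = 0.997).
Of the 6 genes, the count called in C57BL/6 (4) became 0 with the ciliated covariate (2 at an unadjusted p under 0.05), 0 with the erythroid one (3 unadjusted) and 1 on the osteoblast scale. The count of interactions (2) became 0 under each of these (2, 2 and 0 unadjusted). The count between wild type strains (2) became 0 with the ciliated (2 unadjusted) and the erythroid covariate (0 unadjusted) and 1 on the osteoblast scale, and that between mutant strains (3) became 0 with the erythroid covariate (0 unadjusted).
Over all genes, the 3867 called in C57BL/6 became 4 with either of these covariates, 1458 in a fit of the C57BL/6 samples alone and 8776 on the osteoblast scale; with total counts for scaling, which moved the median by -0.20, 616 were higher and 4064 lower. The 22 called in BALB/c became 323 with DESeq2, 44 with limma-voom, 71 in a fit of BALB/c samples alone, 4 with total counts, 4 with the Y-linked covariate, and 0 on the osteoblast scale (450 unadjusted) and with the erythroid covariate (822 unadjusted). The 1626 interactions became 2707 with DESeq2, 30 with the ciliated and 1 with the erythroid covariate. The 5968 between mutant strains became 3 with the erythroid covariate and 2488 on the osteoblast scale, and the 7847 between wild type strains 583, 849 and 4730 with the ciliated and erythroid covariates and the osteoblast scale.
Leaving out 1 sample gave 1724 to 4833 genes in C57BL/6, 0 to 95 in BALB/c, 624 to 3129 interactions, 4500 to 5374 between mutant strains and 6567 to 7319 between wild type strains. The count in C57BL/6 fell to 1724 without mutant replicate 6, 2285 without mutant replicate 5 and 2184 without wild type replicate 1. For the 6 genes these counts were 3 to 4, 0 to 0, 2 to 3, 3 to 3 and 2 to 3. Phospho1 passed between wild type strains with DESeq2 (0.40, adjusted p = 0.0469) and limma-voom (0.46, adjusted p = 0.0495). It also passed without wild type replicates 2 or 3 of C57BL/6. Its left-out fits ran from 0.19 to 0.55 (edgeR adjusted p from 0.0382 to 0.195). Counts of the 6 genes were 1032 or more in every sample, as deposited. Since all counts are even they may stand for fewer reads; with counts divided by 2, each difference of the 6 genes kept its direction and side of the threshold, and 4129 genes were called in C57BL/6. Counting error was not compared with the spread between samples.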
